A study of Mus musculus with 62 samples.

Results

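Of the 1828 regions whose H3K27ac was called higher in quadriceps of mice that carry a Pgc1a transgene in muscle (mTg) than in wild-type quadriceps (Wt), 648 shared not a single base pair with an H3K27ac peak of untreated quadriceps (Quad) or soleus (Sol). These 648 hyperacetylated regions are the members described here, chosen by their H3K27ac levels and peaks. Each member had to be called hyperacetylated in mTg and to overlap none of the 40949 Quad peaks and none of the 34173 Sol peaks. The remaining 1180 hyperacetylated regions met a Quad or Sol peak, 956 of them a Quad peak and 224 a Sol peak only. The working name of the members, regions new to muscle, was only partly borne out by the other peak lists: 278 of the 648 (42.9%) lay in an H3K27ac peak of untreated extensor digitorum longus (EDL), diaphragm (Dia), sedentary (Sed) or Wt quadriceps. They are therefore called hyperacetylated regions outside the Quad and Sol peaks. The share of 42.9% compares with 53.5% of all mTg peaks that overlapped no Quad and no Sol peak and 94.2% of the other hyperacetylated regions. The choice of members for less H3K27ac in Wt itself lowers their share.

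ChIP-seq of H3K27ac, which marks active regulatory elements, and of H3K4me2, which also marks poised ones, was performed on 2 samples per group and mark in 8 groups of male mice, given as C57BL/6 in the labels (the bought wild-type mice were C57BL/6J per the study's methods). EDL, Quad, Sol and Dia came from untreated wild-type mice, Sed and Ex were wild-type quadriceps without or after 4 weeks of access to a running wheel from 8 weeks of age, and Wt and mTg were sedentary littermates that differed in the transgene. The transgene expressed Pgc1a from the muscle creatine kinase promoter, which is active in muscle fibres. A sample held 1 quadriceps, or EDL, Sol or Dia pooled from 3 animals, and the ages of the Wt and mTg mice are not given in the sources used here. The 2 samples of a group were biological duplicates from separate animals, per the methods. The libraries held 11.7 to 24.2 M tags for H3K27ac and 6.41 to 22.7 M for H3K4me2. Whole muscle was profiled, so that fewer nuclei of a cell type and less mark per nucleus cannot be told apart.

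PGC1α is a coactivator with no DNA-binding domain of its own, and it reaches chromatin through partners such as the estrogen-related receptors (ERRs), the PPARs, nuclear respiratory factors and MEF2 proteins. In muscle it is known for raising mitochondrial content, oxidative metabolism and vessel density. Acetylated H3K27 accumulates at enhancers that recruit coactivators with histone acetyltransferases.

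The sequences of the members were read from the mouse genome of the same build as the peak lists (mm10), as given by RefSeq. The ERR element TCAAGGTCA, on either strand, lay in the central 500 bp of 25 members (3.86%), and the half-site AGGTCA that ends it in 248 (38.3%). Of all 36169 mTg H3K27ac peaks, 1.70% and 31.4% held these words in windows of the same length. Among the 20 members with the largest difference between mTg and Wt, 4 held an ERR element somewhere in the region and 2 held the MEF2 consensus. The stretches around these elements are shown for 4 of the members, with the element in capitals, as examples in the regions that differed most. These whole regions are 1114 to 5704 bp wide and were not set beside regions of equal width, and in the central 500 bp the 162 members with the largest differences held the ERR element in 3.70% and the MEF2 consensus in 4.94%. The first 3 show the ERR element, as its reverse complement near Gde1, and Ndst4 shows the MEF2 consensus. Those of Srrm4os (ERR) and BC048679 (MEF2) reach into untranslated exons and are not printed.
Gde1 (chr7:118679539-118679667, plus strand): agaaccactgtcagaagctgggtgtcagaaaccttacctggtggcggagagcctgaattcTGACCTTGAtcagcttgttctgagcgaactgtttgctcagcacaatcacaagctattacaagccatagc
Cyp17a1 (chr19:46678095-46678223, plus strand): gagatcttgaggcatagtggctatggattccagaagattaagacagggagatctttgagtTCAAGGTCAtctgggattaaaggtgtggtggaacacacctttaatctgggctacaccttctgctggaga
Lpin1 (chr12:16521984-16522112, plus strand): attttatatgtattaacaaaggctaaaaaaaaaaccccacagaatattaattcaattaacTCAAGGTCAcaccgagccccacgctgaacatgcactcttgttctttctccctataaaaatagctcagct
Ndst4 (chr3:125331056-125331185, plus strand): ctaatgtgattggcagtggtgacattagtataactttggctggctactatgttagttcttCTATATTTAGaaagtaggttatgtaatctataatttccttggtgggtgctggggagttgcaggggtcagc

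The regions at Chst8 and BC049352, also among the 20, held neither element. Their half-site closest to the centre of the region is shown in capitals, and it is the reverse complement near Chst8.
Chst8 (chr7:34809547-34809672, plus strand): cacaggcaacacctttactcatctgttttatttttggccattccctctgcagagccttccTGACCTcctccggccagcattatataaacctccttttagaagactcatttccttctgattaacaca
BC049352 (chr9:45183593-45183718, plus strand): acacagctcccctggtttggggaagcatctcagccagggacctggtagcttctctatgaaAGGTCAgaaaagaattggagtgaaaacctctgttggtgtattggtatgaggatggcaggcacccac

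The deposited level of a region is a regularised log2 tag count, normalised within its own list, so that levels from different lists are set side by side and not tested. The rule used the mTg and Wt levels, and these are given as a description. Over the members, the median level was 4.71 and 4.75 in the 2 Wt libraries and 5.36 and 5.42 in the 2 mTg libraries. The mean over members was 4.79 ± 0.03 in Wt and 5.48 ± 0.03 in mTg (SD, n = 2 each). The difference between the group means had a median of 0.61 and ran from 0.35 to 2.56 on the log2 scale. Both mTg libraries lay above both Wt libraries in 648 of 648 members, as in 1180 of 1180 other hyperacetylated regions, a separation that the choice of regions fixes. Over the merged Wt and mTg peaks, 3.27% were called hyperacetylated.

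The members sat lower in acetylation than the hyperacetylated regions that met a Quad or Sol peak, which the rule favours, since it chose them for having no such peak. The median Wt level was 4.73 in members, 5.40 in regions with a Sol peak only and 6.40 in regions with a Quad peak, and the median mTg levels were 5.39, 6.04 and 7.32. The difference exceeded 1 in 64 members (9.88%), in 27 regions with a Sol peak only (12.1%) and in 222 with a Quad peak (23.2%). The authors called regions at a 2-fold change of their own fit, whereas most members differ by less than 1 in the deposited level. Regularised log2 values of regions with few tags lie closer together than their tag counts. Members were also narrower, with a median width of 1343 bp against 2152 bp in the other 1180 regions, which lowers a level counted over the whole region. Per kb, the mTg peaks at members had a median percentile of 47.9 within the mTg list, against 69.6 at the other regions.

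**Figure D1:**
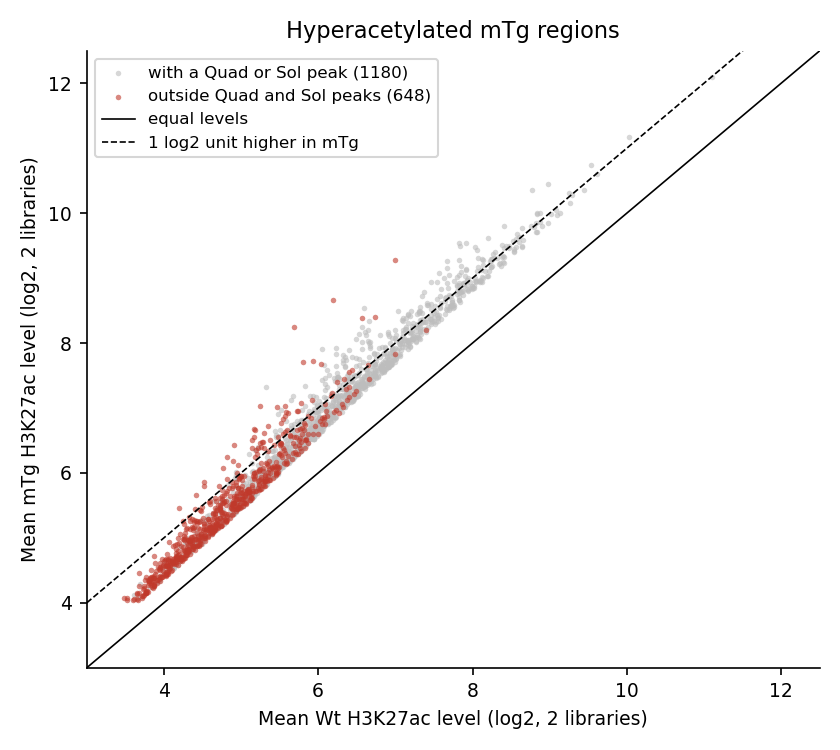
Mean H3K27ac level in Wt (x axis) and mTg (y axis) quadriceps, log2 and 2 libraries each, for each hyperacetylated region, with the 648 members in red and the other 1180 in grey. Members fill the lower left, with a median of 4.73 in Wt and 5.39 in mTg, and 64 of them lie above the dashed line at a difference of 1.

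The largest difference was found in intron 1 of Chst8, which encodes a sulfotransferase that acts on N-acetylgalactosamine. The region, chr7:34805777-34810312, had levels of 5.70 and 5.67 in Wt and of 8.38 and 8.12 in mTg, a difference of 2.56. It overlapped no H3K27ac peak of a list other than mTg, and the nearest Quad or Sol peak was 102017 bp away. Another, chr9:45180384-45186088, was assigned to BC049352 by distance to the start site and lay within Tmprss4, a membrane-bound serine protease gene, in the RefSeq annotation. Its levels were 6.95 and 7.05 in Wt and 9.24 and 9.30 in mTg. In both the gap between the groups was wider than the distance between libraries of a group.

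The only promoter among the 20 with the largest difference covered the start site of BC048679 (chr7:81496826-81499943), with levels of 5.87 and 5.73 in Wt and of 7.68 and 7.75 in mTg, and it held the MEF2 consensus. A further region lay in intron 1 of Ahcyl2, a relative of the enzyme that breaks down S-adenosylhomocysteine, with 6.32 and 6.82 in Wt and 8.35 and 8.43 in mTg. Near Cyp17a1, a steroid hydroxylase gene, an intergenic region had levels of 6.76 and 6.71 in Wt and of 8.29 and 8.51 in mTg. The intergenic region next to Gde1, a glycerophosphodiester phosphodiesterase gene, reached 5.14 and 5.36 in Wt against 7.03 and 7.03 in mTg. Both of these carried an ERR element.

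At 66.9 kb from the start site of Lpin1, whose product lipin 1 is a phosphatidate phosphatase of triglyceride and phospholipid synthesis and a partner of PGC1α, a region of 2999 bp had levels of 5.56 and 5.38 in Wt and of 7.02 and 7.02 in mTg. A pair of further members lay within 11.6 kb of it, with differences of 0.68 and 0.57. Others among the 20 were nearest Lyzl1, Ndst4, Syt13, 2900079G21Rik, Cadm1, Tmem266, Cep83, Cyp2j11, Pik3c3, Fam196b, Srrm4os and Sipa1l3. Their differences ran from 1.33 at Sipa1l3 to 1.79 at Lyzl1. Of the 20, 10 were intragenic, 9 intergenic and 1 a promoter, and 6 lay more than 100 kb from any Quad or Sol peak. Their input level in the mTg list ranged from percentile 3.03 to percentile 93.1 of that list, with a median of 57.4.

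**Figure D2:**
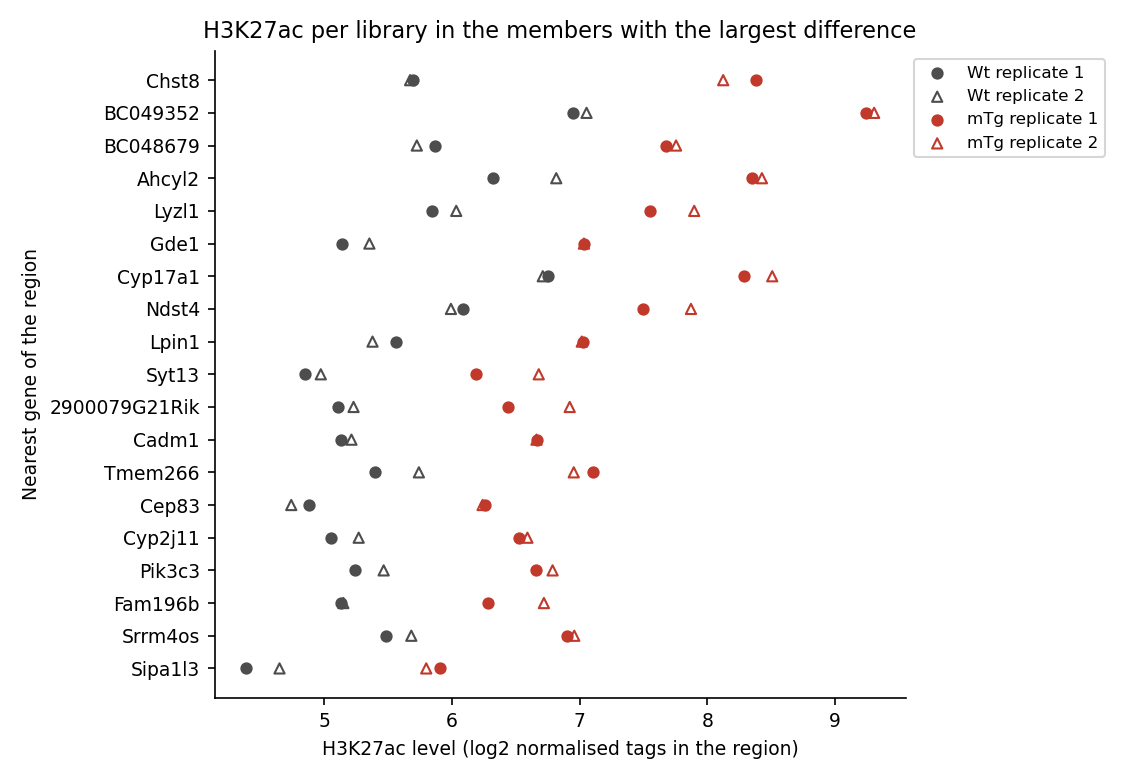
H3K27ac level of each library (log2, x axis) in the members with the largest difference, named by nearest gene (y axis), with 1 of the 20 not shown. Grey marks are Wt and red marks mTg, with circles for replicate 1 and triangles for replicate 2, and in every row both red marks lie to the right of both grey ones.

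The members just inside the authors' fold threshold were nearest Gtf2a1, Snx25 and Gm20125, with differences of 0.46, 0.55 and 0.56. At the edge of the overlap rule, hyperacetylated regions nearest Gm2447 and Klf4 were left out because they shared 36 and 55 bp with a Quad or Sol peak. Their differences were 0.46 and 0.40. The members closest to a Quad or Sol peak lay 63 bp from one at the promoter of Mtf2, 98 bp at Mir582 and 125 bp at Slc25a51. Over all members the distance had a median of 9499 bp, and 49 members (7.56%) were within 1000 bp. The distance exceeded 10 kb in 311 members, whose median difference was 0.64, against 0.56 in those within 1000 bp.

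By position, 364 members (56.2%) were intragenic, 267 (41.2%) intergenic and 17 (2.62%) promoters. Introns held 316 of the intragenic members, exons 29, 3′ UTRs 8, transcription ends 7 and 5′ UTRs 4. Promoters made up 6.27% of the other hyperacetylated regions, 11.8% of all mTg peaks and 2.92% of the 6635 mTg peaks that, like the members, overlapped no Quad and no Sol peak. Members lay at a median of 29.3 kb from the nearest start site, against 20.2 kb in the other hyperacetylated regions. A repeat covered the annotated centre of 132 members (20.4%), namely a SINE in 43, an LTR element in 41 and a LINE in 32, compared with 22.4% of the mTg peaks outside Quad and Sol. The members were assigned to 559 nearest genes on 20 chromosomes, 484 of them with 1 member each.

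Several genes held 3 or more members. Fam196b held 5 over 105 kb (chr11:34317427-34422371), with differences from 0.41 to 1.36, and none of the 5 met a peak of the H3K4me2 list labelled Wt. Another 11 genes held 3 each, namely Lpin1, Tns1, Cd180, Rasgef1b, Plcl1, Dbx1, Ccdc85a, Slco3a1, 3200001D21Rik, 4922502H24Rik and Gm10466. The regions assigned to Dbx1 lay within Nav2, and those assigned to 3200001D21Rik within Adck1. Slco3a1, an organic anion transporter gene, had 7 hyperacetylated regions in all, of which its 3 members differed by 0.46 to 0.49. Tns1, a focal adhesion gene, had 6, and its 3 members differed by 0.44 to 0.80. In total 150 members (23.1%) shared their nearest gene with a hyperacetylated region that met a Quad or Sol peak, and 250 (38.6%) lay within 50 kb of another hyperacetylated region. The same was not counted for other mTg peaks, so that no grouping is read from these counts.

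The 17 promoter members differed by 0.44 to 1.92. After BC048679, the largest differences were found at Idnk, a gluconokinase gene, at Ptpn18, a protein tyrosine phosphatase gene, and at the noncoding RNA C130083M11Rik. Idnk had levels of 6.14 and 6.05 in Wt and of 7.07 and 7.05 in mTg. At Ptpn18 the levels were 5.63 and 5.89 in Wt and 6.77 and 6.59 in mTg, although the region met a Wt H3K27ac peak and no mTg H3K27ac peak. In all, 16 members (2.47%) met no mTg H3K27ac peak, against 2.88% of the other hyperacetylated regions. Amigo3, Rgl3, Gm4278, Cyp1a1, Tmem184a and Gm38426 followed with 0.70 to 0.80. Cyp1a1, a cytochrome of aryl hydrocarbon metabolism, was 147 bp from a Quad peak. Of the 17 promoters, 11 lay in a Quad H3K4me2 peak, and 8 met an ATAC-seq peak of control quadriceps. They were not set beside other promoter peaks, so that nothing particular to these 17 is read from the counts.

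Nearest genes of lipid metabolism were represented by few members each. From a list of lipid and phospholipid synthesis genes, 9 members were assigned to 7 genes, Lpin1, Fasn, Srebf2, Agpat3, Lclat1, Cds1 and Pemt. These are 1.39% of members, compared with 0.76% of the other hyperacetylated regions and 0.28% of all mTg peaks. Outside Lpin1 their differences were 0.45 to 0.65. The region assigned to Fasn, the fatty acid synthase gene, lay 27.6 kb upstream of its start site within an intron of another gene, with levels of 5.03 and 5.06 in Wt and of 5.57 and 5.72 in mTg. Genes of fatty acid uptake, storage and oxidation held 4 members (0.62%), against 1.78% of the other hyperacetylated regions, 0.35% of all mTg peaks and 0.30% of the mTg peaks outside Quad and Sol. They were the fatty acid transport protein gene Slc27a1, the lipoprotein lipase inhibitor gene Angptl4, Cpt1b, which brings long-chain fatty acids into mitochondria, and Ucp3, a mitochondrial carrier gene. At Cpt1b, Wt levels were 4.94 and 4.95 and mTg levels 5.53 and 5.44.

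Respiratory chain, citric acid cycle and mitochondrial dynamics genes held 5 members (0.77%), compared with 0.58% of all mTg peaks. They were nearest the complex I subunit genes Ndufs6 (2 members), Ndufa12 and Ndufab1 and the cytochrome oxidase subunit gene Cox6a1, and all 5 met a peak of the H3K4me2 list labelled Wt. Among PGC1α partners, Thrb, the thyroid hormone receptor β gene, held 2 members, and the nuclear receptor gene Esrrb and the corepressor gene Ncor1 held 1 each. Their differences were 0.51 to 0.80, and 0.62% of members belonged to this list against 0.59% of all mTg peaks. Sln, which encodes the calcium pump inhibitor sarcolipin, held 2 members, both of which lay in Dia H3K27ac peaks. They were the only members of the slow and oxidative fibre list (0.31%, against 0.14% of all mTg peaks). Neuromuscular junction genes held 2 members (0.31%, against 0.088% of all mTg peaks). Etv4 had levels of 4.70 and 4.84 in Wt and of 6.27 and 5.89 in mTg, and the acetylcholine receptor subunit gene Chrnb1 differed by 0.54. The angiogenic genes Apln and Angpt1 held 3 members between them (0.46%, against 0.37% of all mTg peaks), led by Apln with 1.09. With 2 to 9 members a list, these shares rest on few regions. No member was nearest Ppargc1a.

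Cell type markers were the nearest genes of 0 or 1 member per list, where the share of all mTg peaks was itself between 0.0055% and 0.22%. None of the markers of macrophages, fibroblasts, satellite cells, Schwann cells, smooth muscle cells or lymphocytes, nor of muscle fibres, was the nearest gene of a member. The endothelial marker Emcn held 1 member (difference 0.92), at -273503 bp from its start site and closer to the gene Ppp3ca in the RefSeq annotation. The adipocyte marker Plin1 held 1 (0.94), at -2464 bp, in a region that overlapped the gene Pex11a. That single member is 0.15% of members, against 0.025% of all mTg peaks nearest an adipocyte marker. In the H3K27ac lists as a whole, peaks nearest the 16 endothelial markers carried 0.11% and 0.10% of the summed level in Wt and 0.13% and 0.14% in mTg. Those nearest 19 macrophage markers carried 0.067% and 0.056% in Wt and 0.039% and 0.045% in mTg, where 12 of the 19 genes had a peak against 16 in Wt. Peaks nearest adipocyte markers carried 0.0094% and 0.0083% in Wt and 0.0193% and 0.0197% in mTg, with 5 of 9 markers holding a peak in either list and Cidec, Retn, Cfd and Adrb3 holding none. Peaks nearest fibroblast markers carried 0.116% and 0.097% in Wt and 0.056% and 0.060% in mTg. The 12 muscle fibre markers each had a peak in both lists. The values of Wt and mTg did not overlap for adipocyte, fibroblast, endothelial, macrophage, satellite cell and Schwann cell markers. They overlapped for muscle fibre, smooth muscle and lymphocyte markers. The Wt list held 49010 peaks and the mTg list 36169, and each was normalised on its own. How often such values separate for other genes was not counted, so that nothing is read from the separation. By qPCR the paper reports more mRNA of macrophage and endothelial markers in mTg. The macrophage share here was lower in mTg than in Wt, but near that of Sed (0.034% and 0.041%) and Quad (0.039% and 0.037%). The endothelial share was higher in mTg than in Wt, but below that of Sed (0.174% and 0.174%) and Quad (0.214% and 0.231%). The part of cell types in the levels of the members, those at Plin1 and the lipid genes included, was not tested.

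Outside Quad and Sol, a minority of members were acetylated in other muscle. EDL peaks overlapped 114 members (17.6%, Wilson 95% interval 14.9 to 20.7%), where 21.1% of the mTg peaks outside Quad and Sol did. Dia peaks overlapped 111 (17.1%, 14.4 to 20.2%) against 15.5%. For Dia the background lay inside the interval of the members, and for EDL it lay above it, although members were wider than these peaks (median 783 bp). Of the other hyperacetylated regions, 79.3% met an EDL peak and 74.7% a Dia peak. EDL and Dia shared 36 members (5.56%, background 6.30%), 78 lay in EDL only (12.0%, 14.8%) and 75 in Dia only (11.6%, 9.24%). These intervals cover counting error over regions and not the spread between animals, since each list was called once from 2 samples.

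Where a member did meet an EDL or Dia peak, the peak was usually a weak one, as it was at the mTg peaks outside Quad and Sol. The share of peaks above the list's median was 9.65% in EDL and 15.3% in Dia at members, against 22.2% and 17.5% at those peaks. In Dia the members were thus near this background. Per kb of peak, the median level of the 114 EDL peaks was 5.26 and 5.46 in the 2 libraries, against 6.11 and 6.19 over all EDL peaks, and 11 of the 114 lay above the median of the list. In Dia the median level of 111 peaks was 5.44 and 5.77, against 6.29 and 6.27 over the list, with 17 above the list's median. Exceptions were the EDL peaks at Ap1m1, an adaptor protein gene (7.80 and 7.74, percentile 93.3), and at Eef1a2, the muscle and neuron form of an elongation factor (7.62 and 7.76, percentile 92.0). Ppp1r3c, Wnt11 and Zfp930 completed the 5 highest in EDL, at percentiles of 69.2, 66.8 and 66.4. In Dia, Eef1a2 (8.10 and 8.30, percentile 96.5) and Dusp16, a phosphatase gene (8.14 and 8.07, percentile 95.4), ranked highest, followed by Chrnb1, Rnf149 and Cd180. The nearest Quad or Sol peak was 128 bp from Ap1m1, 159 bp from Eef1a2, 958 bp from Wnt11, 5496 bp from Ppp1r3c and 8096 bp from Zfp930.

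Among quadriceps lists, Wt peaks overlapped 152 members (23.5%) and Sed peaks 77 (11.9%). In mTg peaks outside Quad and Sol the background was 36.2% for Wt and 19.4% for Sed, with intervals for the members of 20.4 to 26.9% and 9.61 to 14.6%. Members were chosen for less H3K27ac in Wt than in mTg, so that the rule itself lowers their overlap with Wt peaks and nothing is read from it. The 152 members with a Wt peak had a median Wt level of 5.48, against 4.52 in the 496 without one, and their differences had medians of 0.68 and 0.59. Ex peaks overlapped 24 members (3.70%, 2.50 to 5.45%), where the background was 17.8%. Sed and Ex were wild-type quadriceps too, and how far the choice for less H3K27ac in Wt lowers their shares was not tested. In 366 members (56.5%) no H3K27ac peak of EDL, Dia, Sed, Ex or Wt was present, among them Chst8, Gde1, Lpin1 and Fam196b. The share was 43.7% in the mTg peaks outside Quad and Sol and 5.68% in the other hyperacetylated regions. Members were chosen for less H3K27ac in Wt and the others for a Quad or Sol peak, so the rule sets part of both gaps.

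**Figure D3:**
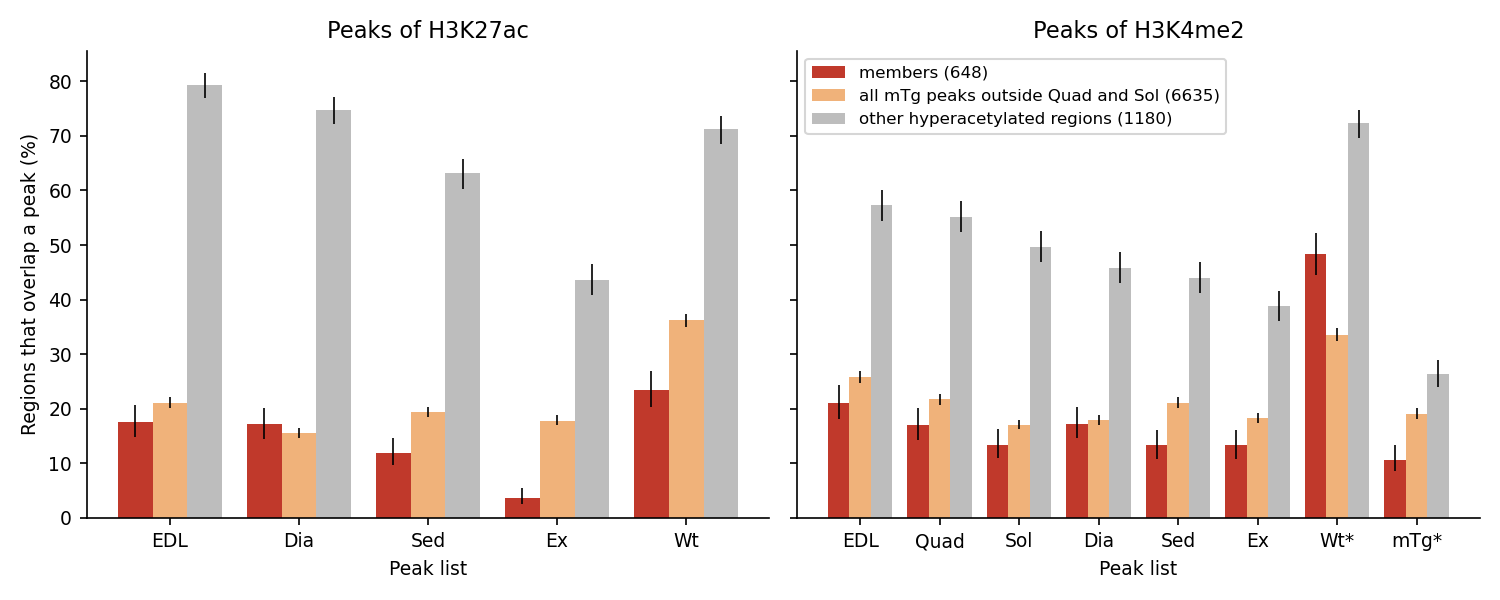
Share of regions (%) that overlap a peak of each H3K27ac list (left) or H3K4me2 list (right), for members (red), all mTg H3K27ac peaks outside Quad and Sol (orange) and the other hyperacetylated regions (grey), with Wilson 95% intervals. Members stand below the grey bars in each list shown, and above the orange bars by more than the intervals only in the H3K4me2 list labelled Wt. Asterisks mark the 2 lists that go in part against the direction of H3K27ac.

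At the regions of changed H3K27ac, the H3K4me2 lists labelled Wt and mTg go in part against the direction of H3K27ac. The paper reports slightly reduced H3K4me2 in mTg at these regions and few H3K4me2 differences, so the marks need not move together. Regions hyperacetylated in mTg held an H3K4me2 peak of the list labelled Wt in 63.8% and of the list labelled mTg in 20.8%. Regions hypoacetylated in mTg did so in 30.9% and 25.4%. In sedentary wild-type quadriceps, 41.6% of hyperacetylated and 53.0% of hypoacetylated regions held a peak in Quad, and 33.1% and 37.8% in Sed. The list labelled mTg had the order of Quad and Sed, and the list labelled Wt that of Sol (36.8% and 20.1%) and Dia (35.7% and 18.2%). In EDL (44.4% and 44.3%) and Ex (29.8% and 29.5%) the shares were nearly equal. The lists differ in size, with 46944 peaks labelled Wt and 27527 labelled mTg, and the order depended on it. Library 1 labelled mTg held 6.41 M tags, against 14.1 M in library 2 and 13.7 and 13.3 M in those labelled Wt. Whether depth set the list size was not tested. In the 20000 peaks of highest score each of the 8 lists met a larger share of hyperacetylated than of hypoacetylated regions, with 27.8% and 6.28% in the list labelled Wt, 17.4% and 14.9% in that labelled mTg and 20.7% and 17.7% in Quad. At equal list length, the share of hyperacetylated regions was thus still higher in the list labelled Wt than in that labelled mTg.

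Peak heights were higher at hyperacetylated than at hypoacetylated regions in each of the 8 H3K4me2 lists, and the gap was widest in the list labelled mTg. In the list labelled mTg the median percentile within the list was 68.0 and 65.6 at hyperacetylated and 27.04 and 28.9 at hypoacetylated regions. In the list labelled Wt it was 48.9 and 53.3 against 37.0 and 34.9, a narrower gap. For H3K27ac itself the Wt list held 54.3% of hyperacetylated and 99.6% of hypoacetylated regions, and the mTg list 97.3% and 27.1%. Which mice these H3K4me2 libraries came from was not tested, so their values are given by label, with and without these lists.

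**Figure D4:**
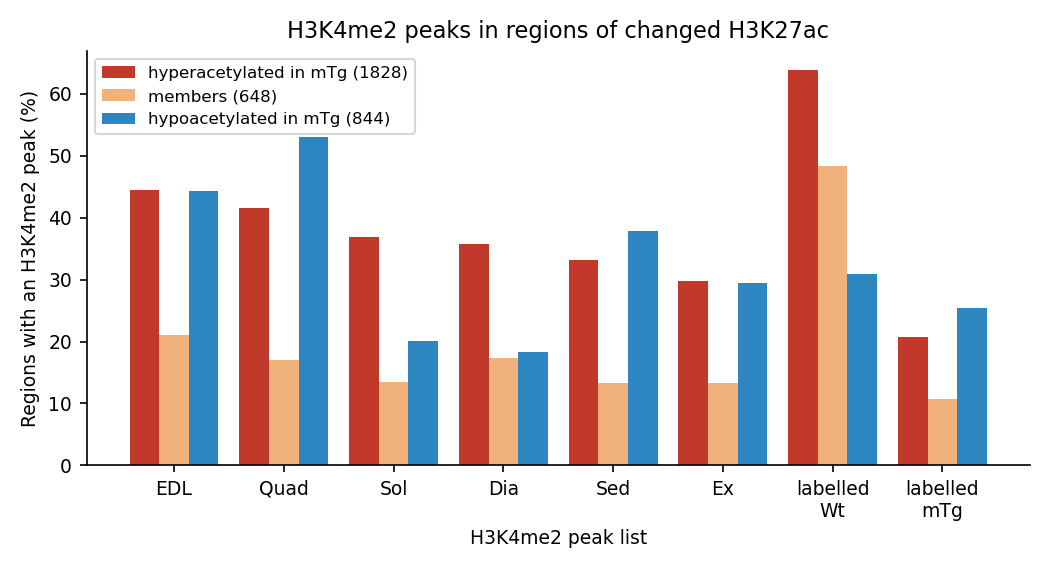
Share of regions (%) with an H3K4me2 peak in each of the 8 lists, for regions hyperacetylated in mTg (red), the members among them (orange) and regions hypoacetylated in mTg (blue). In the list labelled Wt the red bar is 63.8% and the blue 30.9%, whereas in the list labelled mTg the red bar (20.8%) is below the blue (25.4%), as in Quad and Sed.

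In the 6 H3K4me2 lists other than those labelled Wt and mTg, between 13.3% and 20.99% of members held a peak. The EDL list overlapped 20.99% (background 25.8%), Quad 17.0% (21.7%), Sol 13.4% (17.1%), Dia 17.3% (17.9%), Sed 13.3% (21.1%) and Ex 13.3% (18.3%). At least 1 of these 6 lists marked 205 members (31.6%), and all 6 marked 48 (7.41%). In the mTg peaks outside Quad and Sol, at least 1 of the 6 marked 39.7%. In these lists members were at or below the background, although they were wider. The H3K4me2 peaks that did overlap members were of ordinary height, with median percentiles within their own lists from 42.2 in Dia to 56.5 in Sed.

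In the list labelled Wt, 313 members (48.3%, 44.5 to 52.1%) held an H3K4me2 peak, against a background of 33.6% in peaks that were narrower than the members. In the list labelled mTg, 69 members (10.6%, 8.50 to 13.3%) did, against 19.1%. With these 2 lists included, 358 members (55.2%) held an H3K4me2 peak somewhere, and 151 (23.3%) did so in the list labelled Wt and no other. That pattern was found in 7.45% of the mTg peaks outside Quad and Sol and in 8.81% of the other hyperacetylated regions. In the 162 members with the largest H3K27ac differences the share in the list labelled Wt was 62.3%, and in the next 3 sets of 162 it was 52.5%, 41.4% and 37.0%. From first to last set the share also fell in H3K27ac peaks of EDL (23.5% to 10.5%) and Dia (21.6% to 9.26%), and little in Sed (11.7% to 10.5%). In the other H3K4me2 lists it fell less, at most from 21.6% to 15.4% in Dia. The 20 members with the largest difference had a median width of 2988 bp, and width was not taken into account. Of the 20 members with the largest difference, 17 lay in the list labelled Wt and 2, Cadm1 and Srrm4os, in the list labelled mTg. Chst8, Lyzl1, Gde1, Cyp17a1, Ndst4, Lpin1, Syt13, 2900079G21Rik and Cep83 were marked by the list labelled Wt and by none of the other 7.

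In 67 members H3K4me2 peaks of both the list labelled mTg and the list labelled Wt were present. The median percentile within the own list was 61.1 and 57.6 in the libraries labelled mTg and 75.8 and 76.8 in those labelled Wt. The longer list holds more weak peaks, which raises the percentile of the same peak, so that no difference in level is read from these values. An exact two-sided permutation test of 2 against 2 libraries gave p = 0.333, the smallest it can give.

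None of the 648 members overlapped a region hyperacetylated in Ex, where the share in mTg peaks outside Quad and Sol was 0.35%. Of the 2280 regions hypoacetylated in Ex, some overlapped 6 members (0.93%, 0.43 to 2.01%), against 1.54% of those peaks and 5.17% of the other hyperacetylated regions. Both counts are near the background. The 6 were nearest Kifc3, Adam25, Ucp3, Alpk2, Slc12a2 and A330093E20Rik. At Kifc3, a kinesin gene, the level was 7.34 and 7.44 in Wt, 8.16 and 8.24 in mTg, 7.23 and 7.31 in Sed and 6.20 and 6.70 in Ex. Both mTg libraries were thus above Wt and both Ex libraries below Sed. Near Ucp3 the shared stretch was 188 bp, and the level was 8.28 and 8.24 in Sed and 7.65 and 7.33 in Ex over the wider exercise region. The direction in Ex is that by which its list was made, and the levels of the Ex and mTg lists are on separate scales.

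Accessible chromatin of control quadriceps, from ATAC-seq peaks called on pooled samples, overlapped 116 members (17.9%), where the background was 16.7% and the other hyperacetylated regions reached 56.4%. The 116 had a median H3K27ac difference of 0.66, against 0.60 in the 532 without an ATAC peak. Among the 20 with the largest difference, those at BC049352, Gde1, Cadm1 and Cyp2j11 met an ATAC peak. The mediator subunit MED1 had a peak in at least 1 muscle at 13 members (2.01%), against 6.53% of the other hyperacetylated regions and 0.754% of the mTg peaks outside Quad and Sol. Ahcyl2 was among them, with a MED1 peak in Sol. NFAT peaks of Sol, a list of 39661, overlapped 19 members (2.93%, 1.89 to 4.53%), Adam25 included, against 1.60% of the mTg peaks outside Quad and Sol and 3.05% of the other hyperacetylated regions, and the 485 NFAT peaks of Quad overlapped none. Members were wider than the mTg peaks outside Quad and Sol (median 1343 against 783 bp), which raises their overlap with ATAC, MED1 and NFAT peaks. Width was not taken into account.

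Sequence words were counted in the central 500 bp on both strands. The MEF2 consensus was present in 34 members (5.25%), against 4.15% of the other hyperacetylated regions, 2.49% of regions hypoacetylated in mTg and 2.10% of all mTg peaks. For the ERR element the shares were 3.86%, 3.14%, 1.42% and 1.70%. The half-site AGGTCA, which every ERR element contains, reached 38.3%, 39.8%, 35.9% and 31.4%. Members held the E-box CAGCTG, a word bound by myogenic factors, in 25.2%, below the 33.2% of hypoacetylated regions. It was present in 28.4% of all mTg peaks and in 27.1% of those outside Quad and Sol. The words for PU.1, a factor of macrophages (GAGGAAGT), and for ETS factors (CCGGAAGT) were found in 2.62% and 0.46% of members, against 4.08% and 2.07% of all mTg peaks. In the mTg peaks outside Quad and Sol the shares were 4.27% and 0.63%, so that for ETS the members were near this background. AP-1 (TGACTCA) and TEAD (GGAATG) words reached 10.2% and 24.7% of members, close to the 10.2% and 24.3% of all mTg peaks. C/EBP (TTGCGCAA), DR1 and NRF1 words were found in no member window, and in 0.15%, 0.15% and 0.060% of the mTg peaks outside Quad and Sol. GC content was 45.5% in members and 48.6% in all mTg peaks, and it was 45.4% in the mTg peaks outside Quad and Sol, of which 2.29% held the ERR element and 2.43% the MEF2 consensus.

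**Figure D5:**
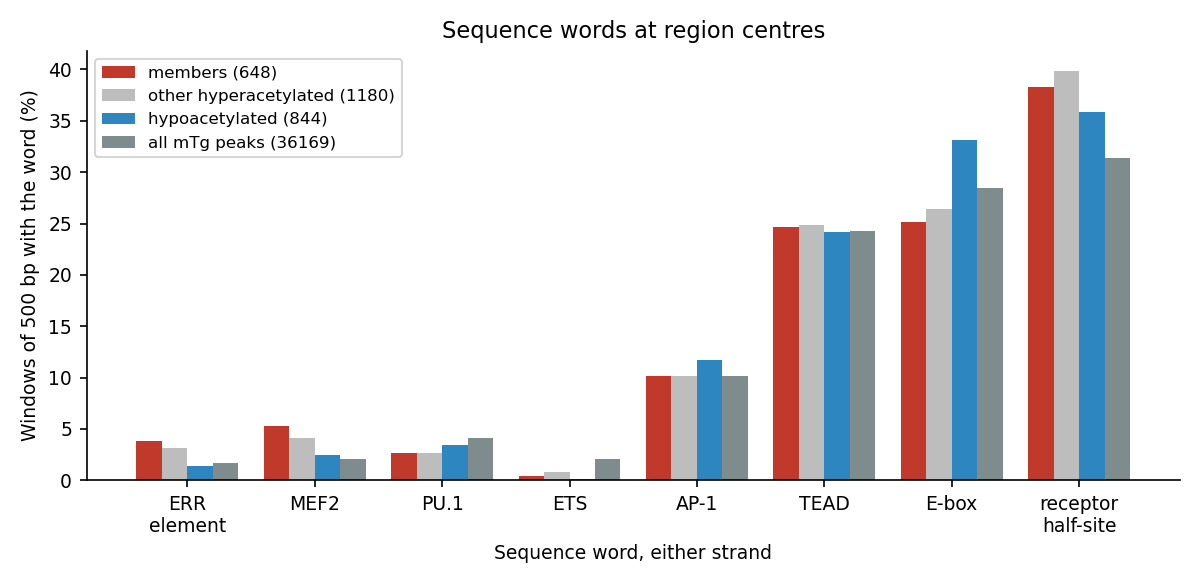
Share of windows of 500 bp (%) that hold each sequence word on either strand, for members (red), the other hyperacetylated regions (light grey), regions hypoacetylated in mTg (blue) and all mTg H3K27ac peaks (dark grey). MEF2 and ERR words are present in 5.25% and 3.86% of members against 2.10% and 1.70% of all mTg peaks.

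The H3K27ac difference was set beside the words without a test. Members with an ERR element had a median difference of 0.64 and those without one of 0.61, and the medians with and without the MEF2 consensus were 0.59 and 0.61. In the same 4 sets of 162, from the largest differences to the smallest, the ERR element was present in 3.70%, 4.94%, 3.70% and 3.09% of members. These are counts of letters in a window and not measurements of binding.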

How the data were processed

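H3K27ac and H3K4me2 ChIP-seq libraries of 8 groups (2 each, 32 in all) had been aligned to mm10 with Bowtie and processed with HOMER. The Bowtie version is 1.2 in the submitters' processing notes, and the study's methods give another version. Peaks were called by the authors over both replicates of a group, and their scores and adjusted p-values (FDR) are as deposited. The deposited levels are regularised log2 tag counts of each library, normalised by the authors within each list. The signal of MED1, NFAT and ATAC peaks was deposited as tags per peak, and only the intervals were used. Differential lists were made by the authors with DESeq2 inside HOMER (FDR 0.05, 2-fold). Their fold changes and p-values are not printed.

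Groups came from the labels. Overlap meant 1 shared bp. Shares are set beside all 6635 mTg peaks outside Quad and Sol and carry Wilson 95% intervals, which cover counting error only. A promoter spanned 1000 bp before a start site and 100 bp after it. Levels per kb are the log2 level minus log2 of the width in kb, and percentiles are within the own list. Words were searched in GRCm38 (RefSeq). Overlap and word counting were tested on simulated data (Python 3.11.15, pandas 2.3.3, scipy 1.17.1). Lists without replicated levels were not tested. The 5 interval lists of ATAC-seq and footprints in transgenic and exercised mice were not used, since they run past the end of mm10 chromosome 1 (195471971).

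The members, gene lists and markers were chosen with earlier results of these data known. Named regions are the 20 with the largest difference, 3 just inside the fold threshold, genes with 3 or more members, up to 10 promoters, nearest genes in a list, the 5 highest in EDL and in Dia, those in exercise-modified regions and the 3 closest to a Quad or Sol peak. A region among the 20 is not reported here.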

Additional observations from a re-analysis of the deposited data

How the results depend on the processing

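The number of members rested on the peak calls: 1036 regions qualified when Quad and Sol peaks needed an adjusted p under 0.001, and 252 when the hyperacetylated regions did. Requiring 50% of the region to be covered lowered the EDL and Dia H3K27ac shares to 13.3% and 12.8%, and those of H3K4me2 to 14.97% (EDL), 11.7% (Quad), 10.96% (Sol), 11.3% (Dia), 10.3% (Sed), 9.10% (Ex) and 29.3% (labelled Wt). With peaks of at least 4-fold over input, Dia H3K27ac fell to 13.1% and Quad H3K4me2 to 13.1%. In the 20000 peaks of highest score, EDL and Dia H3K27ac reached 1.70% and 3.70% (background 5.74% and 4.17%, so that Dia turned from above to below it), and H3K4me2 8.95% (EDL), 7.72% (Quad), 7.25% (Sol), 8.18% (Dia), 7.10% (Sed), 7.56% (Ex), 13.6% (labelled Wt) and 8.49% (labelled mTg). The mTg peaks outside Quad and Sol met the H3K4me2 list labelled Wt in 24.5% at 50% coverage and in 11.9% for the 20000 highest peaks, so that the excess of the members was smaller there. The central 500 bp, an alternative chosen after seeing the data, met a Wt H3K27ac peak in 20.2%. Without the H3K4me2 lists labelled Wt and mTg, also chosen after seeing the data, the share with an H3K4me2 peak in at least 1 list fell from 55.2% to 31.6%.

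The median difference of mTg and Wt was 0.59 to 0.64 with 1 library left out, and 0.021 after centring on the median of all differential regions, which lies at 0.586 because the hyperacetylated list is the longer one. In windows of 300 bp the word shares were 26.7% (half-site), 3.40% (MEF2), 15.7% (E-box), 6.48% (AP-1), 14.5% (TEAD), 0.926% (PU.1) and 0.154% (ETS), and in 1000 bp 6.17% (ERR), 59.3% (half-site), 7.56% (MEF2), 39.8% (E-box), 17.7% (AP-1), 43.7% (TEAD) and 5.40% (PU.1). Window length itself sets these shares. In 36 further settings the values moved by less than their interval, the spread or 1.5 times, and none reversed. No paired analysis was possible because the labels tie no replicate number to a shared animal, litter or day, and because the contrast of mTg and Wt H3K27ac chose the members and was given no test. The deposited peak lists hold no level for regions without a peak, so an absent peak is not an absent mark.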

Other observations

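Within the mTg list the median input percentile of the members was 48.6, and 2 members lay above the 95th percentile.

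In total 145 members (22.4%) lay within 50 kb of another member, and 541 (83.5%) within 50 kb of a Quad or Sol peak, without a background for either count. No peak of either mark, in any list other than mTg H3K27ac, overlapped 204 members (31.5%), against 28.7% of the mTg peaks outside Quad and Sol. Leaving aside the H3K4me2 lists labelled Wt and mTg, the counts were 285 (44.0%) and 32.7%. The Wt H3K27ac list is part of both counts, and the rule lowers the overlap of members with it, so nothing is read from these gaps.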
